A study of Mus musculus with 2 samples.

Results

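The genes described here are the MHC class II presentation genes Cd74, H2-Aa, H2-Ab1, H2-Eb1, H2-DMa, H2-DMb1, Ciita, Ctss and Ifi30, chosen by name as 9 of the 32285 genes in the deposited matrices, each with 1 row. Single-cell RNA libraries were made from the kidneys of C57BL6/J mice, males of 10 to 12 weeks, taken 72 h after saline or after cisplatin at 20 mg/kg, a platinum drug that injures the renal tubule. The labels name 5 mice and 10 kidneys per condition, pooled into 1 library per condition, so that 1 saline library was set against 1 cisplatin library. Cells were drawn on magnetic beads first by CD31, an endothelial surface protein, and then by podoplanin, and were labelled lymphatic endothelial cells. Because each condition has 1 library, every difference below is between these libraries, without a replicate check, and every interval is a 95% interval that covers counting error only.

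MHC class II molecules are pairs of an alpha and a beta chain that carry peptides from swallowed proteins to the cell surface, where helper T cells read them. The chains are assembled on the invariant chain Cd74, which fills the peptide groove until proteases of the endosome trim it and H2-DM exchanges the last fragment for a peptide. Macrophages, dendritic cells and B cells carry the machinery at rest, and many other cells, endothelium among them, switch it on under interferon gamma through the coactivator Ciita. The kidney holds a dense network of resident macrophages and dendritic cells around its capillaries.

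The class II chain genes lie together on mouse chromosome 17, and their promoters share short elements read by the factors that recruit Ciita. On build GRCm38, the beta chain gene H2-Ab1 spans chr17:34257689-34269419, the alpha chain gene H2-Aa spans chr17:34282744-34287823 on the minus strand, and the beta chain gene H2-Eb1 spans chr17:34305867-34316674. The peptide exchange genes lie nearby, H2-DMa at chr17:34119541-34139101 and H2-DMb1 at chr17:34153072-34160230. Elsewhere, Ciita is at chr16:10480059-10528418, the protease gene Ctss at chr3:95526786-95556403 and the reductase gene Ifi30 at chr8:70762774-70766663 on the minus strand. The 110 bases before the start of a class II alpha and a beta chain gene, from RefSeq on GRCm38.p6, are shown because both genes were higher in the cisplatin leukocytes described below. Capitals mark the Y box core TGATTGG in both and the X box core, the first capital run of H2-Eb1, searched with any base allowed at the second and at the sixth of its letters. The motifs were chosen with these sequences in view and searched on both strands. They do not overlap one another.
H2-Aa, chr17:34287824-34287933, minus strand: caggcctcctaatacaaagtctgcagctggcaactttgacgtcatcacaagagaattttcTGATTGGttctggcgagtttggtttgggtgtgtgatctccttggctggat
H2-Eb1, chr17:34305757-34305866, plus strand: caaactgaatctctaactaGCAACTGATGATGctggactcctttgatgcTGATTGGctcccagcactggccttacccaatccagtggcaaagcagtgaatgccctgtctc
The Y box core began 50 bases before the start of H2-Aa and 61 bases before that of H2-Eb1, and the X box core of H2-Eb1 began 91 bases before it. H2-DMb1 held both cores, the Y box 63 and the X box 94 bases before its RefSeq start, which lies inside the gene span given above. Among the 250 bases upstream of 32851 RefSeq starts, 7.23% held the Y box core, 0.0274% the X box core and 0.0183% both. The windows of H2-DMa, Ctss and Ifi30 held neither set of letters. RefSeq windows were matched for 6 of the 9 members.

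Barcodes with at least 500 UMIs (unique molecular identifiers, here 1 per captured transcript end) and at most 20% mitochondrial (mt-) UMIs were kept, 627 in saline and 1729 in cisplatin, with medians of 896 and 746 UMIs. Total UMIs were 5879496 and 19994105, no kept barcode occurred in both libraries, and 1712 cisplatin barcodes against 3 in saline exceeded the mt- limit. Kept barcodes were placed in gates by counts of marker genes, none of which is a member. The leukocyte gate held 4 saline and 77 cisplatin barcodes, capillary endothelium 184 and 80, glomerular endothelium 26 and 28, arterial endothelium 117 and 38, and tubule 103 and 964. Markers of the labelled lymphatic identity were scarce. Across these 5 gates Prox1, the lymphatic master regulator, had 5 UMIs in saline and 8 in cisplatin, and the receptor gene Lyve1 had 0 and 1. Over all endothelial barcodes, those of no subtype included, 7 lymphatic markers summed to 32 UMIs in saline and 26 in cisplatin, with 4 seen in each. The 18 endothelial markers summed there to 7021 and 3971 UMIs. Ungated barcodes were left out of these sums. Levels are given as CPM, counts per 1e6 UMIs of the gate, which needs no division by gene length because 1 end is tagged per transcript, and the sum of Cd74, H2-Aa, H2-Ab1 and H2-Eb1 is called the class II core. A gene with at least 20 UMIs over both libraries in a gate counts as measured, and as higher or lower when its cisplatin to saline ratio passes 1.5-fold with an interval that leaves out 1.

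Leukocytes of the cisplatin library carried most of the class II RNA found in kept barcodes, and the 4 saline leukocytes carried little. The core stood at 2080 CPM (11 UMIs) in saline and 25036 CPM (6248 UMIs) in cisplatin, a ratio of 12.0 (6.72 to 24.1). Of 8 measured members 5 were higher and 0 lower in cisplatin, where 1.94% of 1703 measured genes were higher and 5.46% lower. The gate held 5289 saline and 249561 cisplatin UMIs, so a gene could reach the minimum through cisplatin alone. H2-DMa, with 0 and 143 UMIs, did so and could not be called higher. The share over all genes is therefore not a like background for members with many more cisplatin UMIs. With 0.5 UMI added to each count, the median log2 ratio was 2.74 for the measured members and -0.13 for all measured genes. H2-Aa, H2-DMa and H2-DMb1 had 0 saline UMIs, so their part in that median rests on the added 0.5. Per the labels, flow cytometry of CD45-negative cells was used to check the enrichment, and no step that removes leukocytes is named. All of these ratios rest on the 4 saline barcodes, and the core ratio was 21.2 (9.08 to 65.3) without the richest barcode of each library, 6.92 (3.50 to 16.1) on thinning to 500 UMIs and 5.88 as a mean over barcodes.

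**Figure D1:**
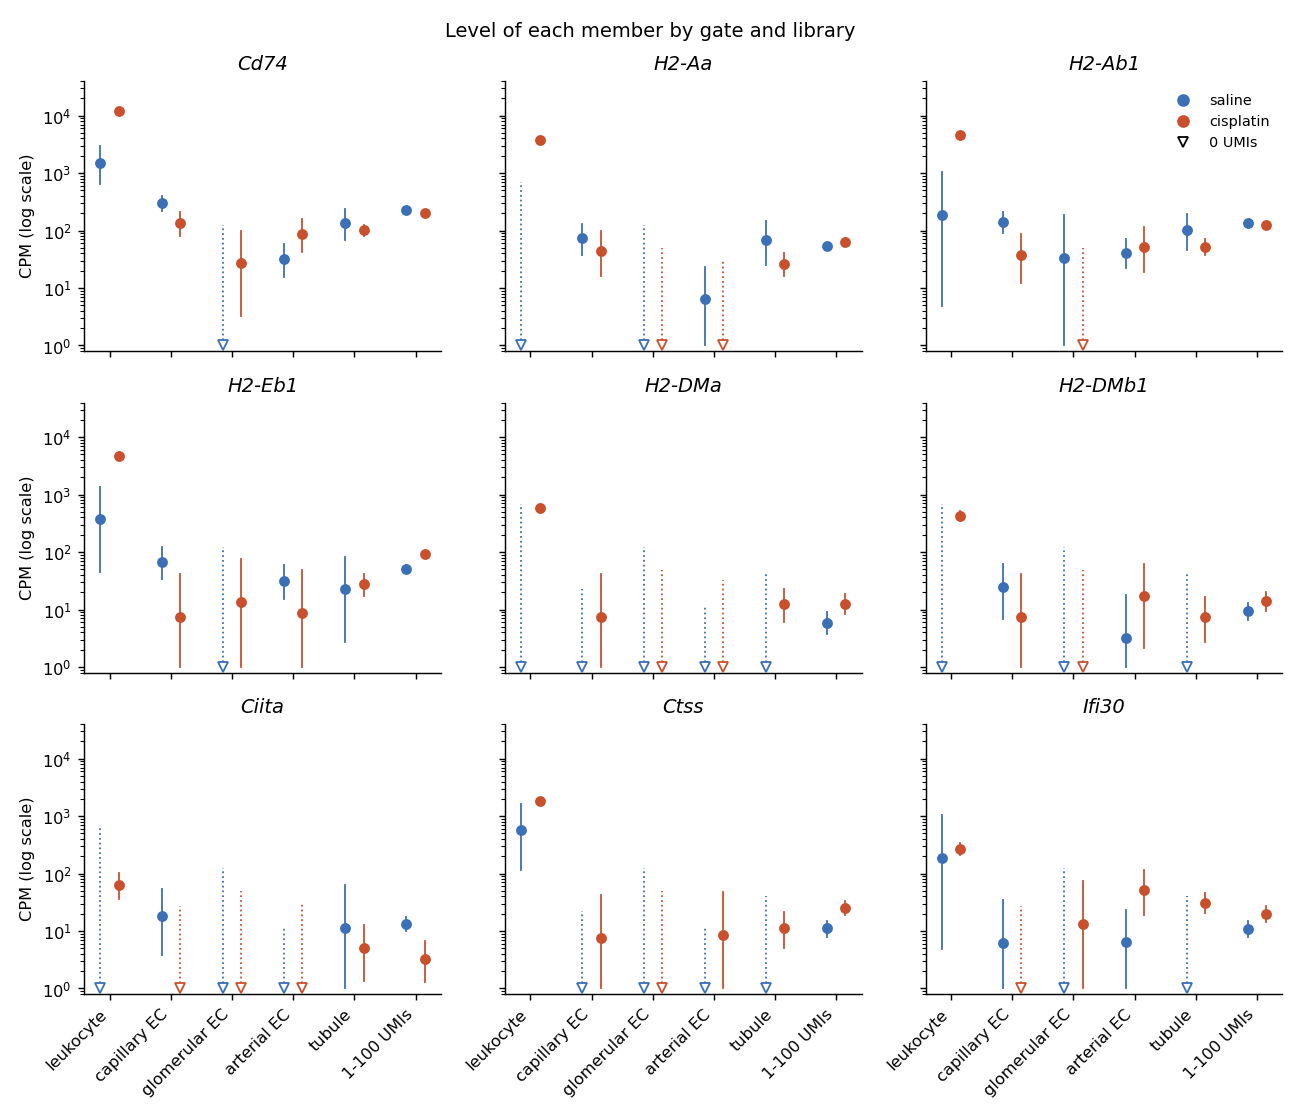
CPM of each member (log axis) in 5 gates and in barcodes of 1 to 100 UMIs, 1 point per library with its 95% counting interval drawn from 1 CPM up, EC meaning endothelial cells; open triangles at 1 CPM stand for 0 UMIs, with a dotted line to the upper bound. Cisplatin leukocytes stand far above every other point for Cd74 (11849 CPM), while no endothelial or tubule point of Cd74 exceeds 302 CPM.

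Cd74 was the most abundant member among leukocytes, with 8 UMIs (1513 CPM) in saline and 2957 (11849 CPM) in cisplatin, a ratio of 7.83 (3.97 to 18.2). It was found in 61 of the 77 cisplatin barcodes and in 2 of the 4 saline barcodes. H2-Aa had 0 UMIs in saline and 947 (3795 CPM) in cisplatin. That was 6.69-fold against a floor of 3 UMIs for the saline gate, and the interval of the ratio began at 5.43. Here 0 of 4 barcodes allows a share of up to 60.2%, so the saline side of H2-Aa is barely bounded. H2-Ab1 had 1 UMI in saline and 1153 (4620 CPM) in cisplatin, a ratio of 24.4 (4.38 to 966). H2-Eb1 had 2 and 1191 (4772 CPM), a ratio of 12.6 (3.49 to 104). The 3 chain genes thus lay within a narrow span of one another in cisplatin leukocytes, each below Cd74.

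The peptide exchange and processing genes were lower in level than the chains. H2-DMa and H2-DMb1, the pair that edits the bound peptide, had 143 UMIs (573 CPM) and 106 UMIs (425 CPM) in cisplatin leukocytes and 0 in saline. Neither was called, since the intervals of their ratios began at 0.811 for H2-DMa and 0.598 for H2-DMb1, below 1. Ctss, the cathepsin that trims Cd74, had 3 UMIs (567 CPM) in saline and 450 (1803 CPM) in cisplatin, a ratio of 3.18 (1.08 to 15.5). The Ctss interval reached past 1 at 1000 UMIs (2.48, 0.844 to 12.1), with 0 markers of other lineages (1.95, 0.661 to 9.51) and on thinning to 500 UMIs (1.71, 0.456 to 14.5), so its place among the 5 higher members rests on these settings. Ifi30, the lysosomal thiol reductase, had 1 and 67 UMIs (189 and 268 CPM), with a ratio of 1.42 (0.246 to 56.9) that was not called. Ciita had 0 and 16 UMIs, 64.1 CPM in cisplatin, too few to be measured. All 3 saline Ctss UMIs and the 1 Ifi30 UMI lay in a single barcode with macrophage and monocyte markers and 0 core UMIs.

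Members occurred together in the same cisplatin leukocytes. Among the 61 barcodes with Cd74, H2-Eb1 was found in 51, H2-Ab1 in 46, H2-Aa in 45, Ctss in 44, H2-DMa in 34, H2-DMb1 in 19, Ifi30 in 18 and Ciita in 6. At least 3 members were seen in 57 of 77 barcodes and at least 5 in 40. Core UMIs were unevenly spread: 43 barcodes with at least 10 held 98.3% of them, 12 barcodes held 0, the median was 13, and the richest held 1508, or 24.1% of the gate's core UMIs. After each barcode was thinned to 500 UMIs, 79.2% (68.5 to 87.6) of cisplatin leukocytes still had a core UMI, against 84.4% (74.4 to 91.7) as counted. In cisplatin tubule barcodes, a type that should lack class II at rest, the as-counted share was 13.9% at a median of 675 UMIs, against 1266 UMIs in leukocytes.

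**Figure D2:**
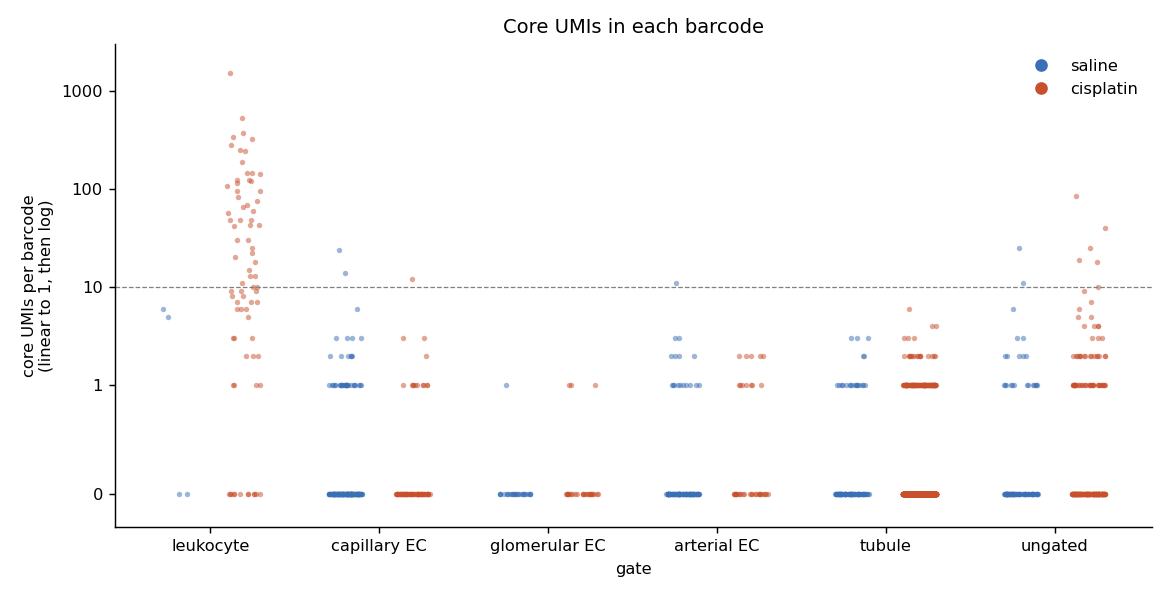
Core UMIs in each kept barcode (vertical axis linear to 1, then log), by gate and library, with horizontal jitter and a dashed line at 10 UMIs. Of the cisplatin leukocytes 43 lie at or above the line, whereas capillary endothelium has 2 such barcodes in saline and 1 in cisplatin.

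Most cisplatin leukocytes carried macrophage markers, and a few carried dendritic cell markers. A barcode was assigned to each subset of which it had at least 2 markers, so subsets overlap. Macrophage markers were met in 61 of the 77 barcodes, where the core stood at 28023 CPM and 56 barcodes had a core UMI. The 6 barcodes with dendritic cell markers all had core UMIs, from 123 to 1508, at 33501 CPM. Only 1 of the 6 passed as no other subset. Together they also held 110 UMIs of the macrophage marker C1qa and 18 of the gate's 24 UMIs of the B cell marker Cd79a. These 6 held 9 of the 16 Ciita UMIs (123 CPM), 60 of the 106 H2-DMb1 UMIs (818 CPM), 92 Ctss UMIs (1254 CPM), 5 of 5 H2-Oa and 7 of 8 H2-Ob UMIs, genes of the H2-DM inhibitor. In the 57 barcodes with macrophage markers alone, Ciita had 3 UMIs (26.9 CPM), and H2-DMb1 stood at 323 CPM and Ctss at 2656 CPM. The barcode with 1508 core UMIs, which had 6 dendritic cell markers and 42452 UMIs, held 3 of the Ciita and 45 of the H2-DMb1 UMIs. Without it, as chosen after seeing the data, the other 5 stood at 194 CPM for Ciita, 485 CPM for H2-DMb1 and 2685 CPM for Ctss, so the Ctss gap to the macrophage barcodes was not seen. No test was made between subsets of 1 library.

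Lymphocyte and neutrophil barcodes were few. The 4 barcodes with T and NK cell markers held 2 core UMIs in all (80.9 CPM), and the 1 barcode with neutrophil markers held 0. The 3 barcodes with B cell markers had 83, 123 and 250 core UMIs, of which the B cell only barcode had 83 at 23426 CPM. In saline, the 1 barcode with B cell markers had 5 UMIs of Cd74 and none of the chain genes, 1 barcode of no subset had 6 core UMIs, and those with T and NK or macrophage markers had 0. The saline gate therefore has no macrophage with class II RNA to set beside those of cisplatin, and a change in which leukocytes were captured cannot be told apart from a change of level within a cell type.

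Capillary endothelium had the second highest core level of saline after leukocytes among the 5 gates, and the level was lower in cisplatin. The core stood at 585 CPM (95 UMIs) in saline and 224 CPM (30 UMIs) in cisplatin, a ratio of 0.383 (0.245 to 0.583). Both measured members, Cd74 and H2-Ab1, were lower, where 12.8% of 2750 measured genes were lower and 7.42% higher. Cd74 had 49 UMIs (302 CPM) and 18 UMIs (134 CPM), a ratio of 0.446 (0.244 to 0.779). H2-Ab1 had 23 UMIs (142 CPM) and 5 UMIs (37.4 CPM), a ratio of 0.264 (0.0783 to 0.709). The chain genes H2-Aa and H2-Eb1 had 12 and 11 UMIs in saline and 6 and 1 in cisplatin, under the minimum, and H2-DMa, H2-DMb1, Ciita, Ctss and Ifi30 had 0 to 4 in either library. The lower level in cisplatin was not called at equal depth: with each barcode thinned to 500 UMIs the core ratio was 0.588 with an interval of 0.274 to 1.16. Thinning left 43 saline and 11 cisplatin core UMIs, so an effect of depth cannot be told apart from the loss of counts. Thinning gave 0.671 (0.244 to 1.60) for Cd74 and 0.329 (0.00729 to 2.56) for H2-Ab1, and neither was then called. Of alternatives chosen after seeing the data, Cd74 was not called without the barcodes of at least 10 core UMIs (0.534, 0.247 to 1.08), nor H2-Ab1 with at most 2 tubule markers (0.200, 0.00475 to 1.30). The H2-Ab1 ratio was 0.132 (0.0149 to 0.548) without the richest barcode of each library.

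Core UMIs of capillary endothelium were thin and uneven. A core UMI was seen in 40 of 184 saline barcodes (21.7%) and 14 of 80 cisplatin barcodes (17.5%), at median depths of 815.5 and 1014.5 UMIs. Thinned to 500 UMIs, the shares were 14.7% (9.90 to 20.6) and 7.50% (2.80 to 15.6), with overlapping intervals. In saline, 2 barcodes with 24 and 14 core UMIs held 40.0% of the total; they had 0 leukocyte markers and 6 and 9 endothelial markers, and 1.83% and 1.11% of their UMIs were core. One cisplatin barcode with 12 core UMIs likewise had 0 leukocyte and 15 endothelial markers. Without barcodes of at least 10 core UMIs the ratio was 0.393 (0.218 to 0.678), and with at most 2 tubule markers, also chosen after seeing the data, it was 0.224 (0.0704 to 0.549).

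The summed level of leukocyte markers in the capillary gate was close in the 2 libraries, while markers of leukocyte subsets differed in both directions. Of 24 leukocyte markers 6 were seen in saline (18 UMIs, 111 CPM) and 8 in cisplatin (15 UMIs, 112 CPM), with C1qa at 0 UMIs in both and Ptprc at 1 and 0; the gate itself admits at most 1 leukocyte marker per barcode. Macrophage markers had 1 UMI (6.16 CPM, 1 of 8 seen) in saline and 7 (52.3 CPM, 4 of 8) in cisplatin, and monocyte markers 80.0 and 291 CPM (3 and 2 of 5). Macrophage and monocyte markers were thus higher in the library where the core was lower. B cell markers went the other way, at 616 CPM (1 of 6 seen) in saline and 291 CPM (2 of 6) in cisplatin. So did dendritic cell markers, at 67.7 CPM (1 of 9) and 37.4 CPM (2 of 9). The part of any of these markers in the ratio was not tested. Free RNA was gauged from tubule markers, whose level in the gate was 9.89% of that in barcodes of 1 to 100 UMIs for saline and 24.6% for cisplatin. At those shares free RNA would give 7.50 of the 95 saline core UMIs and 15.9 of the 30 cisplatin core UMIs. For H2-Ab1 it would give 2.20 of 23 and 4.11 of 5, and the ratio was 0.0623 with that subtracted. The mt- share of the gate's UMIs was 1.21% and 6.97%; its part in the ratio was not tested beyond leaving mt- UMIs out, which gave 0.407 (0.261 to 0.619).

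**Figure D3:**
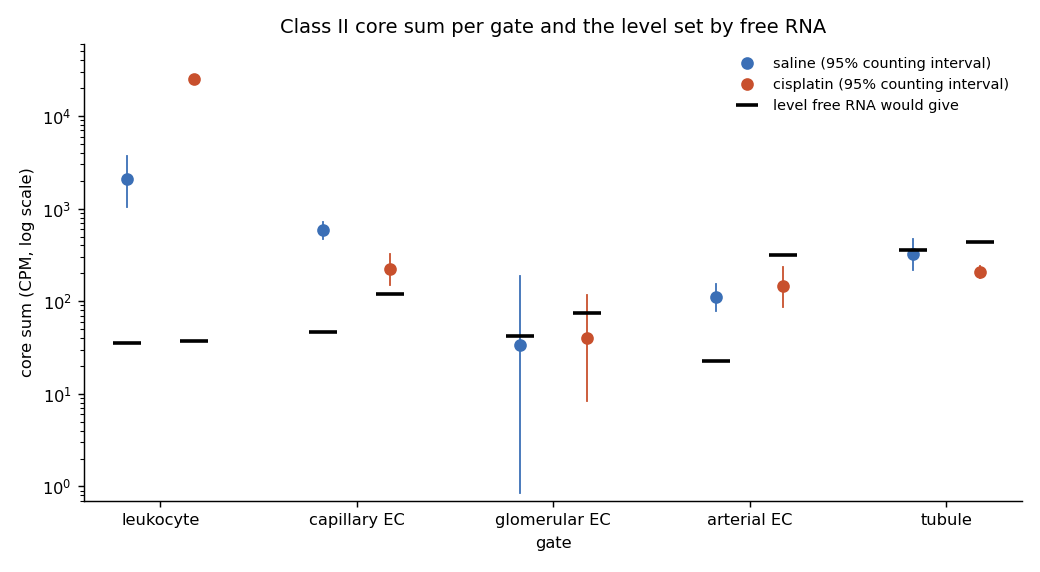
Class II core level (CPM, log axis) in each gate and library with 95% counting intervals, and black bars at the level that free RNA would give as gauged by tubule markers. Saline capillary endothelium (585 CPM) lies above its bar, and the arterial point of cisplatin lies below its bar. Tubule bars are set by the markers that define that gate and do not gauge free RNA there.

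In glomerular endothelium, class II RNA was at the limit of detection. Core UMIs numbered 1 in 26 saline barcodes and 3 in 28 cisplatin barcodes (33.7 and 40.3 CPM; ratio 1.20, 0.0960 to 62.8), and free RNA would give 1.25 and 5.50. No member was measured, so none could be called where 8.02% of 810 measured genes were higher and 9.75% lower. Leukocyte markers had 0 UMIs in saline and 10 (134 CPM, 5 of 24 markers) in cisplatin. At this depth a difference between the libraries was not detectable.

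Arterial endothelium had a low core level in both libraries, and Cd74 alone was called. The core stood at 111 CPM (35 UMIs) in saline and 147 CPM (17 UMIs) in cisplatin, a ratio of 1.33 (0.696 to 2.43) that was not called. Cd74 was the 1 measured member, with 10 UMIs in each library (31.8 and 86.8 CPM), and passed as higher at 2.73 (1.02 to 7.30), where 10.1% of 3703 measured genes were higher and 24.7% lower. The Cd74 interval reached past 1 on thinning to 500 UMIs (2.05, 0.171 to 17.9) and at an mt- limit of 10% (2.84, 0.294 to 14.2). Free RNA would give 7.11 of 35 saline core UMIs and 36.7 against the 17 seen in cisplatin. The median number of tubule markers per arterial barcode was 2 in saline and 8 in cisplatin, and leukocyte markers summed to 25.4 CPM (6 of 24) and 104 CPM (5 of 24). Mural and fibroblast markers summed to 25.4 CPM (8 UMIs, 4 of 10 seen) and 1241 CPM (143 UMIs, 9 of 10), while endothelial markers, 18 of 18 seen in each, summed to 11317 and 3670 CPM. The part of these RNAs in the Cd74 ratio was not tested. H2-Ab1 had 13 and 6 UMIs, H2-Eb1 10 and 1, H2-Aa 2 and 0 and Ifi30 2 and 6, each under the minimum.

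Over all endothelial gates together, including endothelial barcodes of no subtype, H2-Ab1 was lower and Ifi30 higher in cisplatin. Of 5 measured members 1 was higher and 1 lower, where 20.4% of 8126 measured genes were higher and 19.3% lower. H2-Ab1 had 48 UMIs (81.7 CPM) and 27 UMIs (42.5 CPM), a ratio of 0.520 (0.312 to 0.850). Ifi30 had 4 UMIs (6.81 CPM) and 24 UMIs (37.8 CPM), a ratio of 5.55 (1.91 to 22.0). Free RNA would give 9.43 of the 48 H2-Ab1 UMIs in saline and 46.1 against the 27 seen in cisplatin, and 0.746 of 4 and 7.42 of 24 for Ifi30. A single cisplatin barcode of 20461 UMIs, with 6 endothelial, 7 tubule and 0 leukocyte markers, held 13 of the 24 Ifi30 UMIs and 1 core UMI; without it, as chosen after seeing the data, the ratio was 2.63 (0.779 to 11.3) and was not called. The core ratio over these barcodes was 0.714 (0.564 to 0.901). Barcodes of no subtype made up 87 of 414 in saline and 295 of 441 in cisplatin. Tubule markers summed to 4449 and 15294 CPM (22 of 22 seen in each), leukocyte markers to 68.1 CPM (12 of 24) and 165 CPM (18 of 24), and endothelial markers to 11955 and 6252 CPM (18 of 18 in each). Macrophage markers summed to 18.7 and 85.0 CPM (6 and 7 of 8), T and NK cell markers to 1.70 and 3.15 CPM and neutrophil markers to 0 and 7.87 CPM. Lower in cisplatin were B cell markers (742 and 184 CPM, 3 of 6 in each), dendritic cell markers (66.4 and 45.7 CPM, 1 and 4 of 9) and monocyte markers (223 and 156 CPM, 4 and 3 of 5). The part of this makeup in the ratios was not tested.

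In tubule barcodes the class II core was found at or below the level of free RNA. The core stood at 325 CPM (29 UMIs) in saline and 209 CPM (167 UMIs) in cisplatin, a ratio of 0.642 (0.431 to 0.988). In barcodes of 1 to 100 UMIs it stood at 467 and 484 CPM. The share of free RNA in this gate could not be gauged, since tubule markers define the gate. None of 5 measured members was called, where 2.88% of 7053 measured genes were higher and 6.58% lower. Cd74 had 12 UMIs (135 CPM) and 82 UMIs (102 CPM), H2-Ab1 9 and 42, H2-Aa 6 and 21, and H2-Eb1 2 and 22. Ifi30 had 0 and 25 UMIs (31.2 CPM), and the cisplatin level was below what 3 saline UMIs would give. In cisplatin barcodes of 1 to 100 UMIs Ifi30 stood at 20.1 CPM. The highest count in a barcode was 3 core UMIs in saline and 6 in cisplatin, and a core UMI was seen in 20.4% (13.1 to 29.5) of saline and 13.9% (11.8 to 16.2) of cisplatin barcodes. The upper end of the core interval was close to 1, and past it on thinning to 500 UMIs (0.754, 0.458 to 1.31), without the richest barcode of each library (0.684, 0.450 to 1.08), with 0 markers of other lineages, with 1 more marker and without mt- UMIs. At a minimum of 1000 UMIs the ratio was 2.45 (0.399 to 100.6) on 1 saline UMI.

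Barcodes of 1 to 100 UMIs, which hold free RNA rather than whole cells, had nearly the same core level in both libraries, with a shift among the members. The core stood at 467 CPM (1729 UMIs) in saline and 484 CPM (1035 UMIs) in cisplatin, a ratio of 1.04 (0.958 to 1.12). The libraries filled this class differently, so it is not a like background for both. Barcodes of 11 to 50 UMIs held 2256220 UMIs in saline and 71977 in cisplatin, and those of 51 to 100 held 1322737 and 1648258. The core stood at 486 and 417 CPM in the former and at 431 and 469 CPM in the latter. In barcodes of 1 to 10 UMIs it stood at 505 and 552 CPM. Of 9 measured members 4 were higher and 1 lower, where 14.4% of 12375 measured genes were higher and 20.7% lower. The median log2 ratio, with 0.5 UMI added to each count, was 0.57 for members and -0.07 for all measured genes. Mitochondrial UMIs made up 3.84% of these barcodes' UMIs in saline and 30.6% in cisplatin, and the core ratio was 1.43 (1.33 to 1.55) with mt- UMIs left out.

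Among the chains in free RNA, H2-Eb1 had 189 UMIs (51.0 CPM) in saline and 197 (92.0 CPM) in cisplatin, a ratio of 1.80 (1.47 to 2.21). Cd74 (226 and 203 CPM), H2-Ab1 (137 and 125 CPM) and H2-Aa (53.2 and 63.5 CPM; 1.19, 0.953 to 1.49) were not called. Ctss, Ifi30 and H2-DMa were higher, with Ctss at 11.1 and 25.2 CPM (2.28, 1.49 to 3.51), Ifi30 at 10.8 and 20.1 CPM (1.86, 1.18 to 2.94) and H2-DMa at 5.94 and 12.6 CPM (2.12, 1.16 to 3.91). H2-DMb1, with 35 and 30 UMIs (9.45 and 14.0 CPM), was not called (1.48, 0.880 to 2.49). In barcodes of 1 to 50 UMIs the intervals of Ifi30 (1.45, 0.606 to 3.13) and H2-DMa (1.81, 0.581 to 4.88) reached past 1. With mt- UMIs left out, H2-Aa (1.65, 1.32 to 2.07) and H2-DMb1 (2.05, 1.22 to 3.44) passed as higher too. Ciita was lower, with 50 UMIs (13.5 CPM) in saline and 7 (3.27 CPM) in cisplatin, a ratio of 0.242 (0.0927 to 0.537). Barcodes of more than 100 and fewer than 500 UMIs gave the same directions for H2-Eb1 (46.8 and 74.2 CPM), Ctss (3.82 and 19.6 CPM), Ifi30 (5.73 and 18.5 CPM), H2-DMa (2.86 and 10.1 CPM) and Ciita (11.5 and 4.19 CPM). Leukocyte markers summed to 348 CPM in saline and 583 CPM in cisplatin over the barcodes of 1 to 100 UMIs, with 24 of 24 seen in each; their part in the members' ratios was not tested. Ciita overlaps Dexi, Ifi30 overlaps 6330537M06Rik, H2-Eb1 overlaps Gm20513 and H2-DMa overlaps Brd2, all on the opposite strand, and whether counting used strand is not stated in the labels or file headers.

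Relative to the core, the members had different proportions in different sets of barcodes. Per 100 core UMIs, Ciita had 0.256 (0.146 to 0.416) in cisplatin leukocytes, 0.676 (0.271 to 1.40) in cisplatin free RNA and 2.89 (2.14 to 3.83) in saline free RNA. Ctss had 7.20 (6.53 to 7.93), 5.22 (3.89 to 6.86) and 2.37 (1.70 to 3.23) in the same order. H2-Eb1 made up 19.1% of core UMIs in cisplatin leukocytes, 19.0% in cisplatin free RNA and 10.9% in saline free RNA, while H2-Ab1 made up 18.5%, 25.8% and 29.3%. Ifi30 had 1.07 (0.830 to 1.36) per 100 core UMIs in cisplatin leukocytes, against 15.0 (9.42 to 22.9) in cisplatin tubule and 18.2 (11.3 to 28.2) in cisplatin endothelium. Without the single endothelial barcode that held 13 Ifi30 UMIs, as chosen after seeing the data, the endothelial value was 8.40 (4.09 to 15.5). In cisplatin tubule barcodes Ifi30 was found with Cd74 in 4 barcodes and without it in 20.

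**Figure D4:**
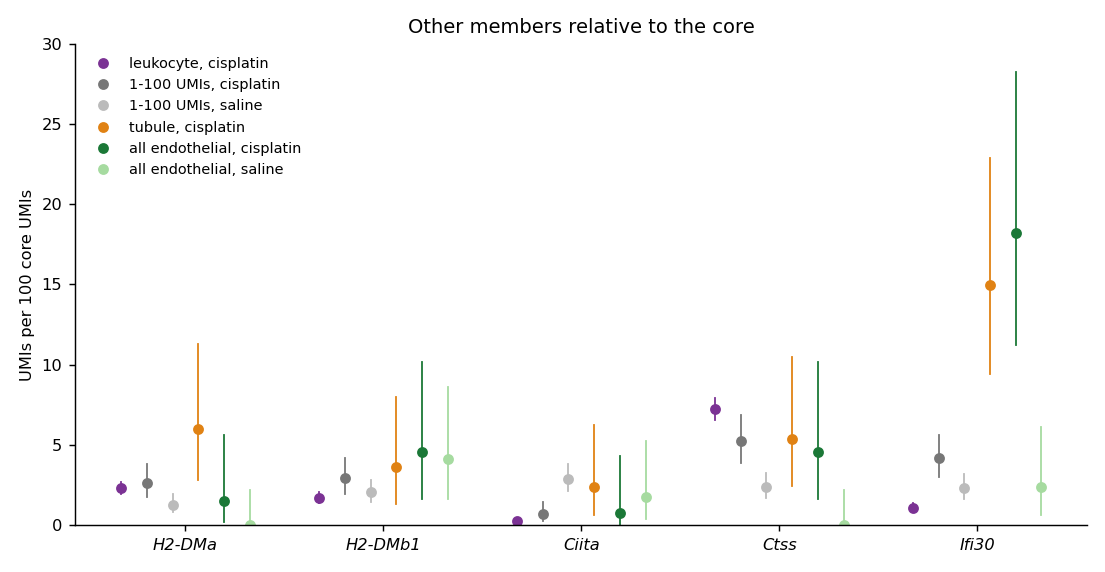
UMIs of 5 members per 100 core UMIs with 95% counting intervals, in 6 sets of barcodes. Ifi30 stands at 15.0 in cisplatin tubule and 18.2 in cisplatin endothelium (8.40 without 1 barcode) against 1.07 in cisplatin leukocytes, and Ciita stands higher in saline free RNA (2.89) than in cisplatin leukocytes (0.256).

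Most class II UMIs of the saline library lay outside kept barcodes. Of 2416 saline core UMIs 71.6% lay in barcodes of 1 to 100 UMIs, which held 63.0% of all UMIs, and 0.455% in the leukocyte gate. Of 13809 cisplatin core UMIs 45.2% lay in the leukocyte gate, which held 1.25% of all UMIs, and 40.1% in barcodes of more than 100 and fewer than 500 UMIs, which held 66.9%. In the cisplatin library the leukocyte gate held 56.3% of Ctss, 18.8% of Ciita and 13.9% of Ifi30 UMIs. Over the whole library the core stood at 411 CPM in saline and 691 CPM in cisplatin, a ratio of 1.68 (1.61 to 1.76).

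**Figure D5:**
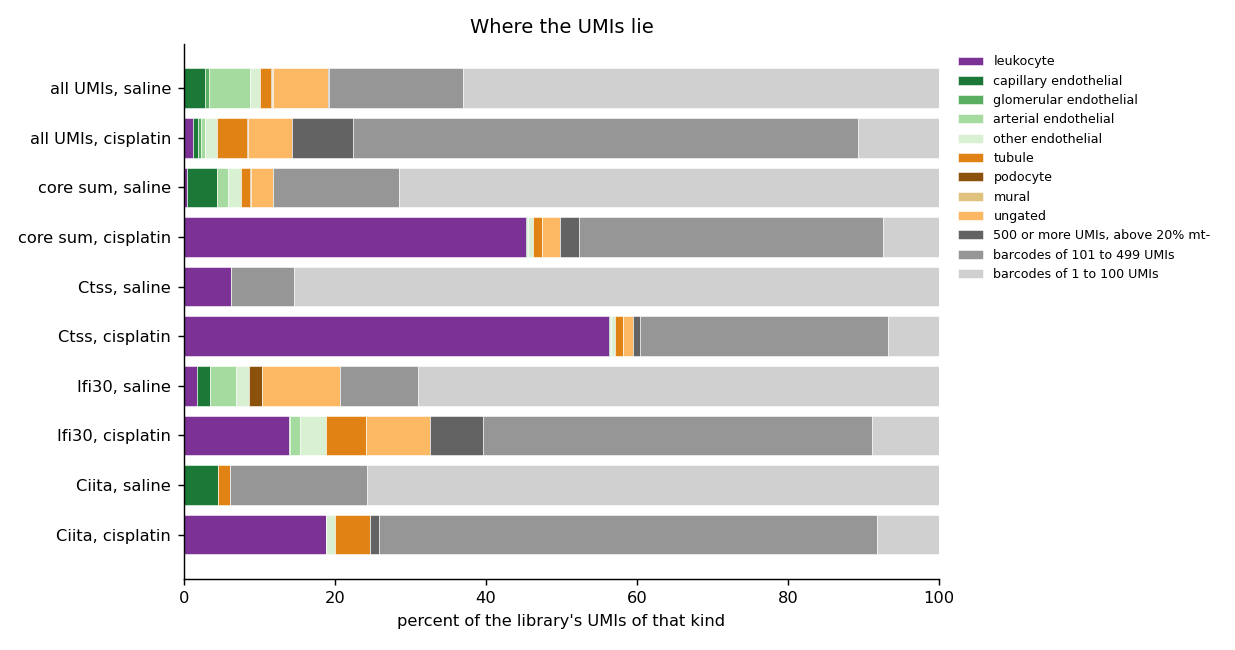
Share of each library's UMIs by class of barcode, for all UMIs, the core sum, Ctss, Ifi30 and Ciita. The leukocyte gate takes 45.2% of cisplatin core UMIs and 56.3% of cisplatin Ctss UMIs but 1.25% of all cisplatin UMIs.

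Few other genes of the pathway passed the rule. In leukocytes none of 30 listed genes passed the rule and 9 were measured, among them the cathepsin genes Ctsb and Ctsd and the costimulatory gene Cd86. In capillary endothelium 1 of the 4 measured of 8 interferon gamma signalling genes was lower, against 12.8% of all measured genes: Irf1, a transcription factor induced by interferon gamma, with 34 UMIs (209 CPM) and 10 UMIs (74.7 CPM) and an interval of 0.157 to 0.739 for the ratio. In arterial endothelium, where 24.7% of measured genes were lower and 10.1% higher, 2 of 4 measured interferon gamma genes were lower, Irf1 (20 and 1 UMIs; 0.00329 to 0.853) and the receptor gene Ifngr1 (33 and 4 UMIs; 0.0851 to 0.930). Of 6 measured lysosomal protease and processing genes there 2 were higher and 1 lower: the aspartic protease gene Ctsd at 321 and 1362 CPM (3.28 to 5.50), the legumain gene Lgmn with 10 and 11 UMIs (1.16 to 7.88), and Sppl2a, whose protease clears the Cd74 stub, with 55 and 10 UMIs (0.225 to 0.983). In glomerular endothelium 1 of 4 measured lysosomal genes was higher, Ctsd (4 and 30 UMIs; 1.05 to 11.7). In tubule, Ctsh alone passed, with 11 and 41 UMIs and a lower level in cisplatin (0.210 to 0.896), 1 of 6 measured lysosomal genes against 6.58% lower of all measured genes. Over all endothelial gates Rfx5, part of the complex that binds the X box, was higher (3 and 19 UMIs; 1.72 to 30.9) and Creb1, a factor of the same promoters, was lower (55 and 38 UMIs; 0.411 to 0.984), as 2 of the 6 measured of 7 promoter complex genes, against 20.4% higher and 19.3% lower of all measured genes. Of 6 lysosomal genes there Lgmn and Ctsd were higher and Ctsh and Sppl2a lower, and of 6 measured interferon gamma genes 1 was lower, Irf1. Ifng itself had 0 UMIs in saline leukocytes and was under the minimum.

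Genes whose level followed the core over the gates were ranked by Pearson r of log2(CPM + 10) across the 11 combinations of gate and library with at least 10 barcodes, podocyte and mural gates included, over 6578 genes. Among the 8 highest were Lsp1 (0.89), Epsti1, P2ry6, Itgb2 and Pld4 (0.88 each) and Lat2 and Ptpn6 (0.87 each). Without the cisplatin leukocytes r over the other 10 was 0.50 to 0.61 for these 7, so their ranking leaned on that gate. Barcodes of a gate share a library and its free RNA, and these values are a description.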

How the data were processed

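The authors deposited unfiltered UMI counts per gene and barcode, whole numbers with no normalization, for both libraries. The submitters' processing notes name Cell Ranger 6.0.1 and the build mm10; the matrices carry a version 4 mark, per the file headers. The authors' own list of cells was not used here.

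The members, marker lists and pathway lists were chosen with earlier results of these data known. Gates needed at least 3 leukocyte markers, 2 endothelial plus 2 subtype markers, or 3 tubule markers. The leukocyte gate allowed at most 1 endothelial marker, and the endothelial gates at most 1 leukocyte and 1 podocyte marker. The tubule gate allowed at most 1 each of leukocyte, endothelial, podocyte and mural markers. Tubule and mural markers were not limited in the leukocyte and endothelial gates. The setting of 0 markers of other lineages tightened the limits on leukocyte and endothelial markers only. A barcode passing more than 1 gate stayed ungated. Ratios of CPM have exact conditional binomial (Clopper-Pearson) intervals, as have shares of barcodes; PCR copies are collapsed by UMI, and intervals and the floor of 3 UMIs cover counting error only. Each leukocyte subset needed 2 markers. Ratios and intervals were tested on simulated data. Named pathway genes were those past the rule, at most 3 per list; genes of like pattern were the 8 highest by r, with members and gate markers left out and at least 50 UMIs, of which 1 is not reported here. Free RNA was taken as barcodes of 1 to 100 UMIs. Scrublet, through scanpy 1.11.5, called 2 of 627 saline and 3 of 1729 cisplatin barcodes doublets (0.319% and 0.174%), too few to act on, so none was removed and doublets remain possible. Numpy 2.4.6, scipy 1.17.1 and pandas 2.3.3 were used. Alternatives were other limits on UMIs, mt- share, markers and gene minimum, free RNA subtraction, barcode means, thinning, and leaving out mt- UMIs, the richest barcode or doublets.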

Additional observations from a re-analysis of the deposited data

Results flagged for a closer look

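At the main settings, the class II core (Cd74, H2-Aa, H2-Ab1 and H2-Eb1) moved in opposite directions in different gates under the same contrast. The ratio of cisplatin to saline was 12.0 in leukocytes against 0.383 in capillary endothelium, and 12.0 in leukocytes against 0.642 in tubule barcodes. Neither difference was tested, since each condition has 1 library, and the leukocyte ratio rests on 4 saline barcodes. The capillary ratio was not called on thinning to 500 UMIs (0.588, 0.274 to 1.16). The tubule ratio lost its call under several alternatives and was 2.45 (0.399 to 100.6) at a minimum of 1000 UMIs, so its direction is not settled.

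A class II signal also appeared among the ungated barcodes, which no gate's comparison uses. Their core level was 163 CPM (71 UMIs) in saline and 278 CPM (322 UMIs) in cisplatin, a ratio of 1.70 (1.31 to 2.23). In cisplatin 6 of 223 ungated barcodes held at least 10 core UMIs and 61.2% of the core UMIs there. The richest, with 85 core UMIs, had 9 leukocyte, 3 endothelial and 13 tubule markers, and the next, with 40, had 8, 7 and 13. In saline 2 of 102 held at least 10, and those with 25 and 11 core UMIs had 0 leukocyte markers and 15 and 6 endothelial markers.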

How the results depend on the processing

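No paired analysis was possible because each condition has 1 library. For the core ratios and counts of members called, 60 values under an alternative lay within the 95% counting interval of the main value, or for counts within 1.5-fold, while 8 moved and 1 reversed. Some of these intervals are wide: of 49 core ratios under an alternative 40 lay within 1.5-fold of the main value, and 7 that had passed the rule no longer did, of which 6 were in tubule and 1 in capillary endothelium. The leukocyte core ratio was 5.88 as a mean of barcode CPM, 6.92 thinned and 21.2 without the top barcodes. The glomerular ratio was 1.89 as a mean of barcode CPM. The capillary core ratio was 0.213 at 1000 UMIs, 0.588 thinned to 500 UMIs and 0.224 with at most 2 tubule markers. The arterial core ratio was 0.684 when thinned. The tubule core ratio reversed to 2.45 at 1000 UMIs, with 1 saline UMI. The core ratio of barcodes of 1 to 100 UMIs was 1.43 without mt- UMIs. At a minimum of 50 UMIs per gene, members lower in capillary endothelium numbered 1 in place of 2, and members higher in arterial endothelium 0 in place of 1, since fewer genes were measured. The causes of the other moves were not tested. Of the members' own ratios 128 lay within the counting interval of the main value and 9 moved. Of these 137, 117 lay within 1.5-fold, and 12 lost their call. Beyond 1.5-fold, H2-Ab1 in leukocytes was 10.7 thinned, Cd74 in arterial endothelium 5.96 with 1 more marker, and H2-Aa in tubule 1.03 with 0 markers of other lineages. No core ratio could be had at 1000 UMIs for leukocytes and glomerular endothelium, for the glomerular gate with 1 more marker, free RNA subtracted, without its top barcode or with at most 2 tubule markers, or for the arterial gate with free RNA subtracted. The tubule gate has no such value, since tubule markers gauge the free RNA. The 4 saline leukocytes and the few glomerular UMIs limit what depth can show.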
